A study of Mus musculus with 22 samples.

Results

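The miR-191 and miR-425 cluster is a pair of miRNA hairpins that lie side by side on mouse chromosome 9. Its members here were the 4 mature miRNAs cut from these hairpins, mmu-miR-191-5p, mmu-miR-191-3p, mmu-miR-425-5p and mmu-miR-425-3p, chosen by name from the 1966 mature names of the deposited count table. All 4 were found, each at a single locus, and each had counts in all 22 libraries. The samples were miRNA-seq libraries of round spermatids (RS), germ cells that have finished meiosis and are haploid, from testes of mice aged 75 to 85 days. The groups were 5 WT and 5 GRTH-KO samples in the first labelled batch (batch 1), and 6 WT and 6 GRTH-KI samples in the second (batch 2). GRTH/DDX25 is a testis-specific RNA helicase that is absent in KO mice, while KI mice carry a point mutation that leaves them without its phosphorylated form. Both mutants are sterile and their spermatids stop developing before they elongate, and whether RS of a mutant and of WT were at the same steps was not tested. The labels do not say whether the libraries of a group came from separate animals or from pools, so the p-values measure only the spread between these samples.

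A miRNA hairpin is cut by Dicer into a duplex, of which usually only 1 strand is kept in an Argonaute protein, where it guides the repression of mRNAs that pair with its seed, bases 2 to 8. The product from the left arm of the hairpin is called 5p and that from the right arm 3p. miR-191 and miR-425 are made from 1 shared primary transcript, are found in many tissues, and are also abundant in blood cells.

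The mature sequences are shown because the 4 products can be told apart by them and because the seed decides which mRNAs a miRNA can pair with. They were taken from RefSeq (GRCm38.p6), run 5′ to 3′ and have the seed in capitals.

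mmu-miR-191-5p: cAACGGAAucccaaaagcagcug
mmu-miR-191-3p: gCUGCACUuggauuucguuccc
mmu-miR-425-5p: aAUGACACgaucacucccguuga
mmu-miR-425-3p: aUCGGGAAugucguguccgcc

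The 4 seeds differ from one another, so the cluster holds neighbours and not a seed family. Among the 1675 names of the table with a sequence in RefSeq, 1 other miRNA has the seed of a member. This is miR-489-3p (chr6:3721922-3721944, minus strand), which shares the seed of miR-425-5p and differs from it further along.

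mmu-miR-489-3p: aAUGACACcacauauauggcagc

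miR-489-3p had 0 counts in each library. Over the 39010121 counts of the 22 libraries, a count of 0 allows a level of up to 0.0769 CPM (3 counts over all libraries). The seed AUGACAC was thus read here from miR-425-5p, with 300653 counts in all.

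The hairpins are shown to place each product in its arm, with the arms in capitals. Mir191 spans 74 bases at chr9:108568319-108568392 and Mir425 spans 85 bases at chr9:108568777-108568861, both on the plus strand of GRCm38.

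Mir191: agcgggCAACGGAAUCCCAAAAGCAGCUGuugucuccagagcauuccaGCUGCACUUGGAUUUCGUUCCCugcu
Mir425: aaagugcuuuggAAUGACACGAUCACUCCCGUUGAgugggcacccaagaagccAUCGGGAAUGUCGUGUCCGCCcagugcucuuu

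There are 384 bases between the hairpins, and together they span 543 bases. In the GENCODE vM21 annotation both lie in exon 1, the whole length, of the lincRNA transcript 4833445I07Rik-201 (chr9:108567533-108569174). In the spliced form 4833445I07Rik-202 the Mir191 hairpin falls in the intron between exons 1 and 2, and Mir425 begins just past the end of exon 2. The protein-coding gene Dalrd3, usually named as the host of the cluster, starts 1025 bases downstream of Mir425 in GENCODE (chr9:108569886-108572774) but spans both hairpins in RefSeq (chr9:108567484-108572773). The annotations therefore differ on whether the cluster is inside Dalrd3 or in front of it. A further annotated miRNA gene on the minus strand, Gm24083, overlaps Mir191. The authors' counting used strand, so reads from it would not be added to miR-191.

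**Figure D1:**
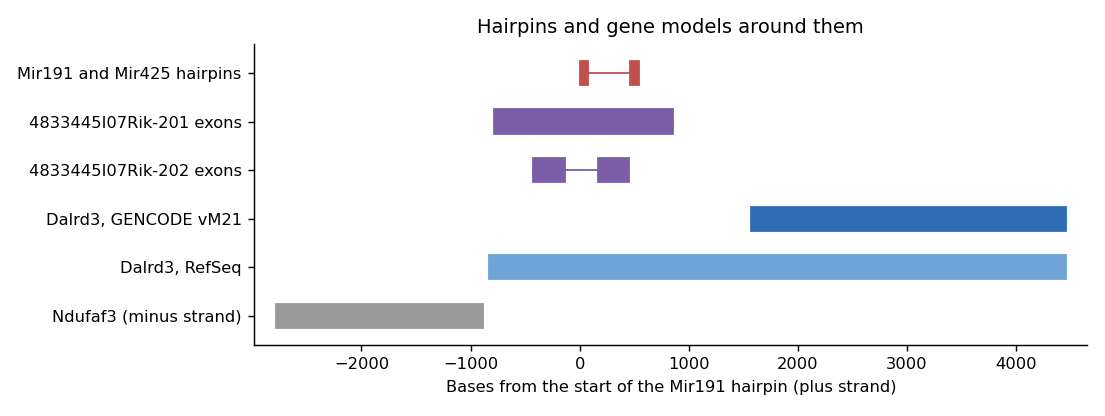
Positions of the hairpins and the gene models around them in bases from the start of Mir191, with boxes for exons or whole genes and lines for introns or gaps. The hairpins sit inside the lincRNA transcript and the RefSeq span of Dalrd3, and 1025 bases in front of Dalrd3 as GENCODE draws it.

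Library totals ranged from 559957 to 881323 counts in KO and from 870913 to 1081333 in WT of batch 1, and from 2067322 to 3239357 in the libraries of batch 2. No library was a copy of another of its group. Because these are bulk samples, fewer cells of a type and less RNA per cell cannot be told apart in any level below.

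The 5p products were among the most abundant miRNAs of RS in every group. Levels are given in CPM, counts per fixed library size scaled by the TMM method. The products are of nearly equal length, 21 to 23 bases. Whether the library kit read each of them with the same efficiency was not tested, which limits comparisons of level between members. miR-191-5p was at 15798 ± 1466 CPM (SD, n = 5) in WT of batch 1, 15882 ± 1343 (n = 5) in KO, 16068 ± 1552 (n = 6) in WT of batch 2 and 13970 ± 2179 (n = 6) in KI. It ranked between 6 and 10 by count in each library. miR-425-5p was at 8170 ± 1016 CPM in WT of batch 1, 7276 ± 388 in KO, 8694 ± 754 in WT of batch 2 and 8080 ± 770 in KI, and ranked between 11 and 23. In order of mean level, WT of batch 2 was highest for both 5p products, while the lowest was KI for miR-191-5p and KO for miR-425-5p. Neighbours in these orders overlapped in their samples. The orders hold for TMM-scaled values, and as plain shares of the library the highest were KO for miR-191-5p (1.93%) and WT of batch 1 for miR-425-5p (0.904%).

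The 3p products were present at a few counts per library. miR-191-3p was at 14.8 ± 2.26 CPM (SD, n = 5) in WT of batch 1, 13.1 ± 4.26 (n = 5) in KO, 9.65 ± 3.32 (n = 6) in WT of batch 2 and 9.95 ± 1.58 (n = 6) in KI. These levels rest on 5 to 30 counts per library. miR-425-3p was at 22.3 ± 4.20 CPM in WT of batch 1, 24.99 ± 3.57 in KO, 24.4 ± 1.83 in WT of batch 2 and 29.1 ± 7.20 in KI, on 15 to 85 counts. The smallest amount taken as detectable, 3 counts, was passed in every library for both. Together the 4 members took 2.66% ± 0.180 of all counts in WT of batch 1, 2.83% ± 0.111 in KO, 2.10% ± 0.126 in WT of batch 2 and 2.02% ± 0.275 in KI.

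**Figure D2:**
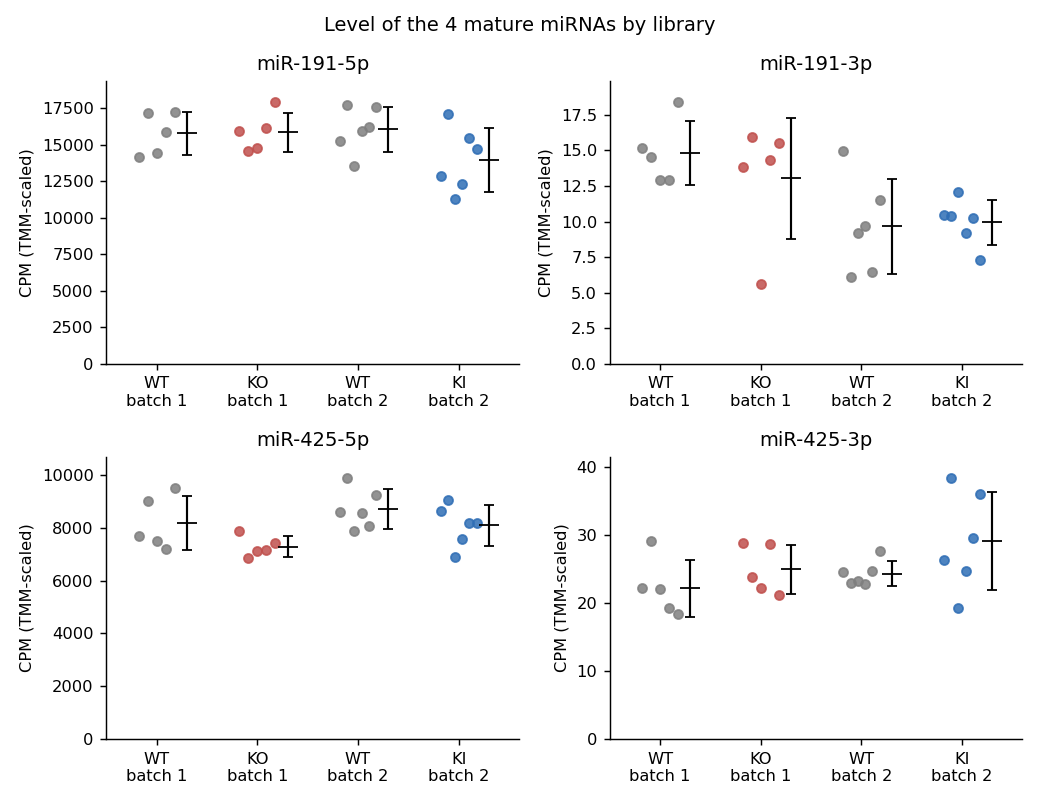
TMM-scaled CPM of each member (y axes, from 0) in each library by group, with the mean and SD of the group in black. The 5p products are at 6853 CPM or more and the 3p products at 38.5 CPM or less, and the samples of mutant and WT overlap in each batch for all 4 members.

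Nearly all counts of both hairpins came from the 5p arm. Over all libraries miR-191-5p had 555759 counts and miR-191-3p had 401, which is 0.0721% of the hairpin's counts for the 3p arm (95% exact Clopper-Pearson interval 0.0652% to 0.0795%) and 1386 counts of 5p for each count of 3p. miR-425-5p had 300653 counts and miR-425-3p had 945, or 0.313% for the 3p arm (0.294% to 0.334%) and 318 counts of 5p for each of 3p. The intervals of the hairpins do not meet. By single library, the 3p share was at most 0.109% for miR-191 and at least 0.193% for miR-425, so it was larger for miR-425 throughout. The order held in every group, with 0.0931% against 0.271% in WT of batch 1, 0.0829% against 0.342% in KO, 0.0595% against 0.283% in WT of batch 2 and 0.0728% against 0.353% in KI. The deposited counts are reads and not unique molecules, so these intervals cover counting error only.

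Set beside other hairpins, the arms were unequal but not among the extremes. In 158 hairpins with both arms named, a single locus for each arm and at least 1000 counts, the minor arm held a median of 1.78% of the counts. Ordered from the most unequal, miR-191 was at place 21 and miR-425 at place 38. Whether the library kit read the arms with the same efficiency was not tested.

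**Figure D3:**
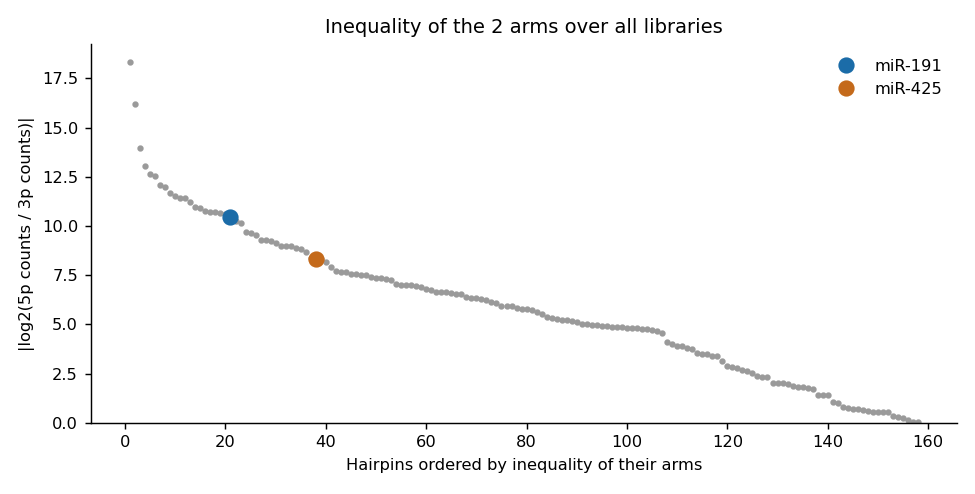
Absolute log2 ratio of 5p to 3p counts summed over all libraries (y axis) for 158 hairpins ordered from the most to the least unequal (x axis). miR-191 (place 21) and miR-425 (place 38) lie in the upper part of the curve, below the most unequal hairpins.

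The comparison of KO with WT of batch 1 asks whether loss of GRTH changes the cluster in RS. None of the members was called: 0 of 4 passed an adjusted p of 0.1 in edgeR's quasi-likelihood test, where 41.9% of the 334 miRNAs tested did (140, of which 71 were higher and 69 lower). At an unadjusted p under 0.05, 0 of 4 members passed beside 43.4% of all, and DESeq2 called 0 of 4. miR-191-5p, the most abundant member, was at 14153, 17195, 14475, 15891 and 17275 CPM in the WT samples and at 15946, 14602, 14771, 16146 and 17947 CPM in KO. The samples were interleaved, and the log2 fold change was 0.03 (SE 0.07, 95% interval -0.13 to 0.20, edgeR adjusted p = 0.741). miR-425-5p was at 7665, 9004, 7482, 7200 and 9498 CPM in WT and at 7874, 6853, 7106, 7137 and 7408 CPM in KO. A pair of WT samples stood above every KO sample and the others were mixed with them, with a log2 fold change of -0.14 (SE 0.08, interval -0.31 to 0.03, edgeR adjusted p = 0.181). Without WT replicate 4, the lowest WT sample, it was -0.18 and passed the threshold (edgeR adjusted p = 0.0921). For the 5p products the intervals thus leave room for changes between -8.47% and 14.6% for miR-191-5p and between -19.3% and 2.10% for miR-425-5p.

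The 3p products were less precise in KO. miR-191-3p had 15, 15, 14, 16 and 20 counts in WT and 12, 18, 5, 10 and 11 in the smaller KO libraries, at a log2 fold change of -0.15 (SE 0.25, interval -0.70 to 0.39, edgeR adjusted p = 0.655). KO replicate 3, with 5 counts, was the lowest of all, and without it the log2 fold change was 0.03. miR-425-3p had 22, 30, 24, 24 and 20 counts in WT and 25, 27, 20, 20 and 15 in KO, at a log2 fold change of 0.19 (SE 0.18, interval -0.20 to 0.59, edgeR adjusted p = 0.426). The samples of KO and WT overlapped for all 4 members, against 20.1% of the miRNAs tested whose samples did not.

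The comparison of KI with WT of batch 2 asks the same for loss of the phosphorylated form. Again 0 of 4 members were called, where 38.0% of the 387 miRNAs tested were (147, with 70 higher and 77 lower). Unadjusted, 0 of 4 had a p under 0.05 beside 41.3% of all, and DESeq2 called 0 of 4. miR-191-5p ranged from 13574 to 17727 CPM in WT (median 16119) and from 11319 to 17149 in KI (median 13781). Of the 6 KI samples, 3 lay below the lowest WT sample and the other 3 were inside the WT range, and the log2 fold change was -0.18 (SE 0.10, interval -0.38 to 0.03, edgeR adjusted p = 0.190). Without KI replicate 2, the highest of the KI samples, it was -0.25 and passed the threshold (edgeR adjusted p = 0.0377). miR-191-5p was also lower in KI than in the same-numbered WT sample in 6 of 6, and it passed with the replicate number as a block. The labels do not say that a number marks a shared animal or day. Over all samples the interval runs from -23.4% to 2.34%.

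For the other members the KI samples were more widely spread around WT or mixed with it. miR-425-5p ranged from 7869 to 9883 CPM in WT (median 8570) and from 6886 to 9059 in KI (median 8176), with a log2 fold change of -0.08 (SE 0.07, interval -0.22 to 0.06, edgeR adjusted p = 0.376). Of its KI samples, 2 lay below every WT sample. miR-191-3p ranged from 10 to 28 counts in WT (median 21.5) and from 14 to 30 in KI (median 23), with a log2 fold change of 0.07 (SE 0.22, interval -0.39 to 0.54, edgeR adjusted p = 0.810). miR-425-3p ranged from 38 to 69 counts in WT (median 52.5) and from 48 to 85 in KI (median 65.5), with a log2 fold change of 0.27 (SE 0.16, interval -0.08 to 0.61, edgeR adjusted p = 0.234). In CPM, 3 KI samples of miR-425-3p lay above every WT sample and 1 lay below them all. Leaving out KI replicate 3, the lowest, gave 0.36 and passed the threshold (edgeR adjusted p = 0.0801). The samples of KI and WT overlapped for all 4, against 12.4% of the miRNAs tested whose samples did not.

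The KO effect and the KI effect were then set against each other, each relative to the WT of its batch. The difference (KO effect minus KI effect, log2) was 0.21 for miR-191-5p (SE 0.13, interval -0.06 to 0.48, edgeR adjusted p = 0.481) and -0.06 for miR-425-5p (SE 0.11, interval -0.30 to 0.17, edgeR adjusted p = 0.815). Without KO replicate 5 the value of miR-191-5p was 0.05. For the 3p products it was -0.24 (SE 0.34) for miR-191-3p, or -0.03 without KO replicate 3, and -0.08 (SE 0.24) for miR-425-3p. None of the 4 was called, and neither was any other of the 421 miRNAs tested (0%). At an unadjusted p under 0.05 there were 67 of them (15.9%), none a member, and DESeq2 also called 0.

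WT RS were the only cells sequenced in both batches, and they show how far the members differ between batches without a change of genotype. Of the 4 members 1 was called, where 56.7% of the 383 miRNAs tested were (217). This was miR-191-3p, which was lower in batch 2 with a log2 fold change of -0.67 (SE 0.24, interval -1.19 to -0.15, edgeR adjusted p = 0.0319). It was at 15.2, 14.6, 12.9, 12.9 and 18.4 CPM in batch 1, and between 6.07 and 14.98 CPM (median 9.44) in batch 2. Of the 6 samples of batch 2, 5 lay below all those of batch 1 and replicate 1 lay within their range. The share of miRNAs called lower was 29.8%, and the samples of the batches did not overlap for 37.9%, none of them a member. Without WT replicate 5 of batch 1, the highest, the value was -0.55 and did not pass (edgeR adjusted p = 0.104).

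The other 3 members did not pass between batches on TMM-scaled values, at -0.03 (SE 0.08) for miR-191-5p, 0.03 (SE 0.09) for miR-425-5p and 0.08 (SE 0.16) for miR-425-3p. Library depth and batch cannot be told apart here, since every library of batch 2 was deeper than every library of batch 1. The scaling matters for the 5p products in this comparison. As plain shares of the library, miR-191-5p fell by 0.36 and miR-425-5p by 0.29 on the log2 scale and both passed the threshold (edgeR adjusted p = 0.000101 and 0.000777), while the median of all miRNAs tested was at -0.34 on that scale and at -0.01 with TMM. Set against those medians, both 5p products lay within 0.05 of the middle of all miRNAs under either scaling. The split of the called miRNAs between batches was 103 higher and 114 lower with TMM, and 47 higher and 193 lower by library size. For KO it moved from 71 and 69 to 101 and 44, and for KI from 70 and 77 to 96 and 53.

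**Figure D4:**
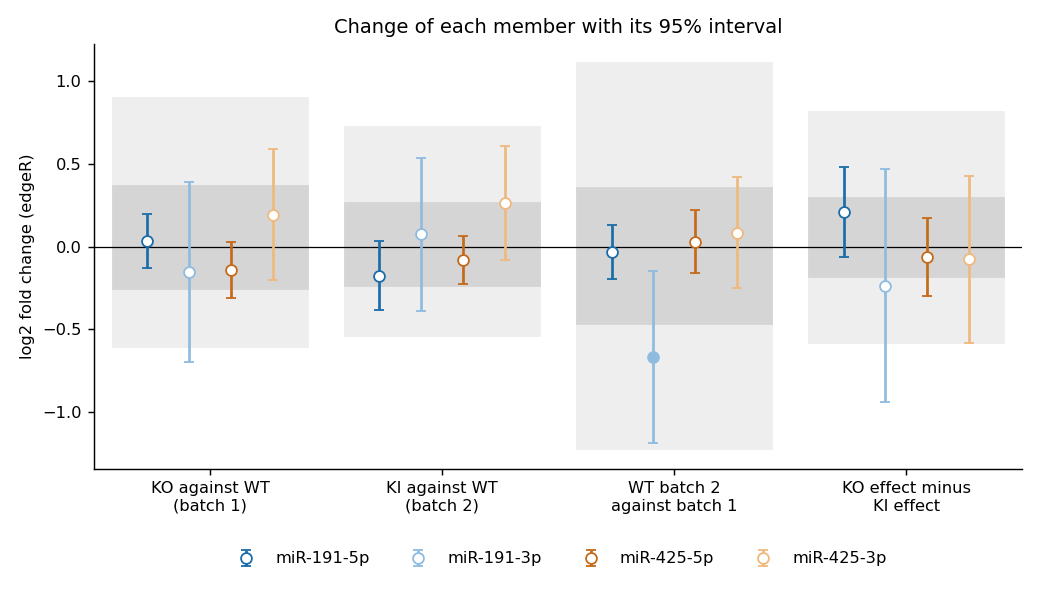
log2 fold change with its 95% interval (y axis) for each member in the 4 comparisons, over grey bands that hold the middle 50% and 90% of all miRNAs tested. The filled point is miR-191-3p between the WT batches (-0.67), the only member called, and the 5p products lie within 0.21 of 0 in each comparison.

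Ratios between members of the same library do not depend on scaling, and they address whether arms or hairpins shifted against each other. They were taken as log2 ratios of counts plus 0.5, and 12 differences (4 ratios in 3 comparisons) were tested with two-sided exact permutation tests. None passed an adjusted p of 0.1, and the smallest adjusted p was 0.104. The smallest p that such a test can give was 0.00794 for KO, 0.00216 for KI and 0.00433 between the WT batches.

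The ratio of miR-425-5p to miR-425-3p had a lower mean in each mutant than in its WT, with overlapping samples. In WT of batch 1 its log2 values were 8.39, 8.25, 8.37, 8.51 and 8.98, and in KO they were 8.06, 8.14, 8.28, 7.92 and 8.40. Of the KO samples, 3 lay below every WT sample, and the difference was -0.34 (SE 0.15, exact permutation p = 0.0556, adjusted 0.133). In batch 2 the ratio ranged from 8.33 to 8.73 in WT (median 8.41) and from 7.81 to 8.47 in KI (median 8.17), a difference of -0.32 (SE 0.12, exact permutation p = 0.0260, adjusted 0.104). As counts, miR-425-3p made up 0.271% of its hairpin in WT and 0.342% in KO, and 0.283% in WT and 0.353% in KI. These comparisons share no sample, but neither passes the adjustment, and between the WT batches the ratio differed by -0.04 (SE 0.14).

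For miR-191 the differences between mutant and WT were smaller than or close to their SE. The log2 ratio of miR-191-5p to miR-191-3p was 9.82, 10.16, 10.08, 10.22 and 9.84 in WT of batch 1, and 10.11, 9.80, 11.23, 10.07 and 10.11 in KO. KO replicate 3 stood apart, and the difference of 0.24 (SE 0.26, exact permutation p = 0.563, adjusted 0.676) was -0.002 without it. In KI the difference was -0.30 (SE 0.27, exact permutation p = 0.288, adjusted 0.384). Between the WT batches it was 0.70 (SE 0.24, exact permutation p = 0.0173, adjusted 0.104), and the ratio of miR-191-3p to miR-425-3p differed by -0.81 (SE 0.25, exact permutation p = 0.0130, adjusted 0.104).

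The hairpins themselves were compared by the ratio of miR-191-5p counts to miR-425-5p counts. By single library it ran from 1.82 to 2.21 in WT of batch 1 and from 2.03 to 2.42 in KO. In batch 2 it ran from 1.72 to 2.02 in WT and from 1.49 to 1.89 in KI. The mean ratio of counts was 1.94 ± 0.155 (SD, n = 5) in WT of batch 1, 2.18 ± 0.160 (n = 5) in KO, 1.85 ± 0.108 (n = 6) in WT of batch 2 and 1.72 ± 0.161 (n = 6) in KI. Its log2 value differed by 0.17 in KO (SE 0.07, exact permutation p = 0.0476, adjusted 0.133) and in KI it differed by -0.10 (SE 0.07, exact permutation p = 0.156, adjusted 0.312). The sign thus differed between the mutants, and neither value passed the adjustment. Within groups the SD of the log2 ratio was 0.110, against a median of 0.167 over the 1225 pairs of the 50 most abundant names. Of those pairs, 13.1% varied less.

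**Figure D5:**
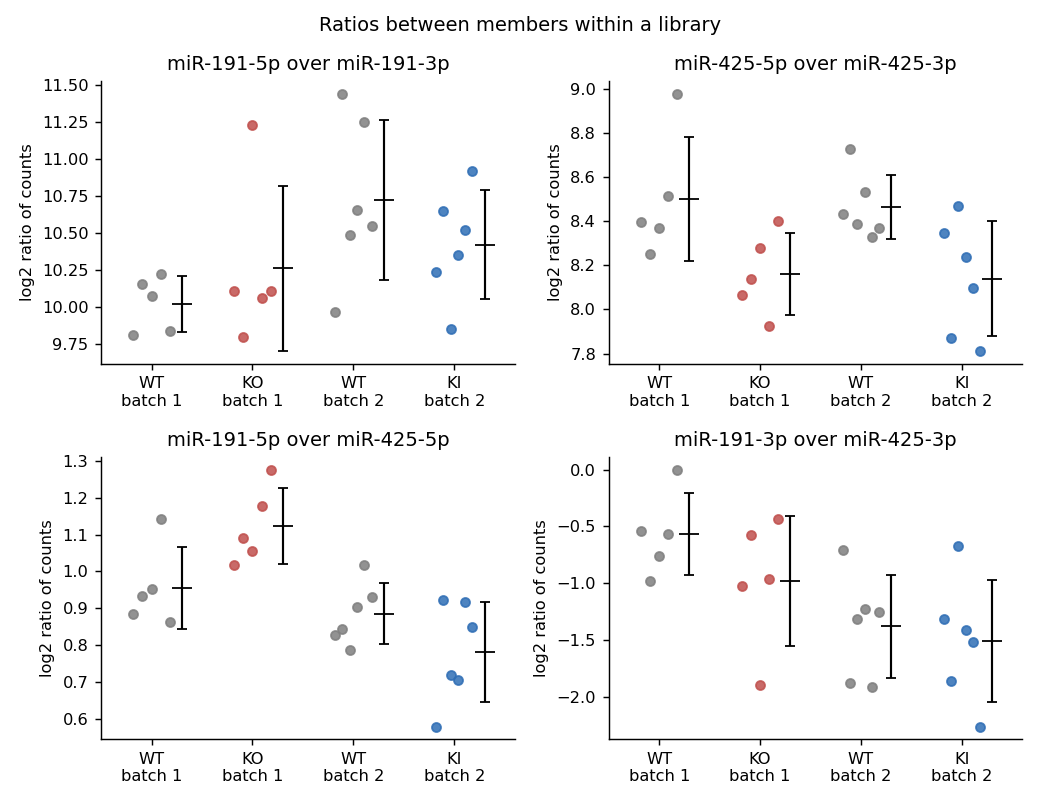
log2 ratios of counts between members (y axes, not from 0) in each library by group, with the mean and SD of the group in black. The miR-425-5p to miR-425-3p ratio is lower on average in KO and KI than in the WT of the same batch with overlapping samples, and KO replicate 3 stands above the other KO samples in the miR-191-5p to miR-191-3p ratio.

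The miRNAs whose levels moved most like each member were found by Pearson's r of log2(CPM + 1) minus the batch mean, over 22 samples and 329 miRNAs of at least 10 CPM. These values are a description, since all points share libraries and their scaling. For miR-191-5p the closest were miR-7223-3p (r = 0.85), miR-93-5p (0.83) and miR-871-3p (0.82), and its neighbour miR-425-5p was at place 14 (0.70). For miR-425-5p they were miR-34b-3p (0.73) and miR-93-5p (0.73), followed by miR-191-5p at place 3 and miR-34c-3p (0.69). For miR-191-3p they were miR-22-5p (0.70), miR-9-3p (0.67) and miR-15b-5p (0.52), and for miR-425-3p miR-106b-3p (0.71), miR-92a-3p (0.64) and miR-24-1-5p (0.60). Between the arms of 1 hairpin r was -0.04 for miR-191 and 0.18 for miR-425, and with the mean of each group taken off in place of the batch mean it was 0.01 and 0.46.

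Other intragenic miRNAs give the setting in which the cluster was not called. Counting those called, 21.3% of all miRNAs tested rose and 20.7% fell in KO. In KI, 18.1% rose and 19.9% fell. Of 11 products of other units of several hairpins in host genes, 2 rose and 3 fell in KO, and of 10 tested 3 rose and 1 fell in KI, with median log2 fold changes of 0.01 and 0.05 (all miRNAs 0.01 and 0.0009). Among them miR-99a-5p, from the non-coding host Mir99ahg, rose in both mutants (0.68, SE 0.24, and 0.66, SE 0.20), and so did miR-24-3p (0.40, SE 0.14, and 0.32, SE 0.09), which has a locus in 2010111I01Rik and another outside it. Also in this list, miR-16-5p lies in the non-coding Dleu2 and in Smc4, and miR-30c-5p in the lincRNA Gm27028 and in Nfyc. Their reads may come from either host. Of 14 products of hairpins that stand alone in protein-coding genes, 2 rose and 6 fell in KO, and 2 rose and 7 fell in KI, at medians of -0.16 and -0.24. Some of these have more than 1 locus. miR-26a-5p lies in Ctdsp2 and Ctdspl, miR-103-3p in Pank3 and Pank2, and miR-128-3p in R3hdm1 and Arpp21. miR-7a-5p has a locus in Hnrnpk and another outside a host. miR-140-3p, from Wwp2, fell by 1.16 (SE 0.10) in KO and by 1.10 (SE 0.10) in KI, miR-128-3p by 0.47 and 0.35, and miR-103-3p by 0.19 and 0.27. miR-26a-5p, from the Ctdsp genes, rose by 0.46 and 0.40. miR-103-3p was called in KO at -0.19 (SE 0.05), beside the -0.14 (SE 0.08) of miR-425-5p that was not. Its mean of 9069 CPM may hold reads counted at both of its loci. This level therefore cannot be set beside that of miR-425-5p, which has a single locus.

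Lists of miRNAs known from other cell types and from germ cells are given beside the cluster, which is known from blood cells too. For comparison, rises made up 21.3% and falls 20.7% of all miRNAs in the KO test, and 18.1% and 19.9% in the KI test. Among 7 blood cell miRNAs, 4 passed as higher in KO and 6 in KI. The median log2 fold changes were 0.68 and 0.56, and those called in both mutants included miR-146a-5p (1.13 and 0.75), miR-155-5p (0.85 and 0.56), miR-223-3p (0.68 and 0.97) and miR-150-5p (1.64 and 0.90). miR-142a-3p, the most abundant of the list with 136478 counts in all libraries, was at 0.11 (SE 0.10) in KO. miR-142a-5p was at 0.12 (SE 0.11) in KO, and neither was called there. In KI both were called, at 0.52 (SE 0.10) and 0.44 (SE 0.10). The red cell miRNA miR-451a was at -0.25 (SE 0.59) in KO and 0.11 (SE 0.28) in KI, neither called, and miR-144-3p had 1 count in all libraries together. Summed by library total without TMM, the blood cell miRNAs took 5101 to 6131 CPM in WT and 5941 to 8252 in KO. In batch 2 they took 2870 to 3499 in WT and 3793 to 5797 in KI. miR-142a-3p made up most of these sums. Of the muscle, vessel and stroma miRNAs 5 of 6 rose in KO and 4 of 7 did so in KI. Called in both mutants were miR-199a-3p (0.96 and 0.78), miR-10b-5p (1.002 and 0.90), miR-143-3p (1.02 and 0.58) and miR-145a-5p (0.57 and 0.52). The KO rise of miR-1a-3p, a muscle miRNA, was 1.79 (SE 0.61), beside -0.49 (SE 0.55, not called) in KI. miR-133a-3p was at -0.49 (SE 0.54) in KI and miR-126a-3p, of vessels, at 0.38 (SE 0.29) in KO and -0.04 (SE 0.25) in KI, none of them called. Between the WT batches miR-1a-3p was higher in batch 2 by 5.03 (SE 0.63) and miR-133a-3p by 4.53 (SE 0.72). Of 13 testis germ cell miRNAs 9 fell in KO and 8 in KI and none rose, with miR-34c-5p (-0.21 and -0.11), miR-741-3p (-0.38 and -0.41), miR-465a-3p (-0.36 and -0.34) and miR-743a-3p (-0.23 and -0.47) called in both. The part of such cells in the levels of miR-191 and miR-425 was not tested.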

How the data were processed

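Small RNA of isolated RS was sequenced in 22 samples, grouped by the genotype and batch labels. The deposited values are raw counts of reads for each mature miRNA. Per the labels and the methods, the authors trimmed adapters with cutadapt 3.4, aligned reads to GRCm38 with Bowtie2 2.4.2, allowing up to 100 alignments per read, and counted by strand with featureCounts (Subread 2.0.1). Of the names, 82 had more than 1 locus, but none of the members. Reads shared between loci could be counted at each of them, which would raise such names. The library totals and the levels of other miRNAs, against which the shares and ranks of the members were taken, could then be raised too.

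Here, edgeR 4.0.16 in R 4.3.3 was run on these counts (quasi-likelihood test) with TMM and filterByExpr, each batch by itself with genotype as the only term, adjusted over all miRNAs tested and called at 0.1. The study used DESeq2, run here as an alternative (1.42.0). The methods place the KI batch first, and the order of the labels was followed. Levels are CPM over all libraries with TMM. The model was tested on simulated data. Ratios of members were tested with exact permutation tests (scipy 1.17.1). Plots used matplotlib 3.10.9.

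The members and lists were chosen with earlier results of these data known. The miRNAs named are the members, up to 4 of each list called in both mutants by highest CPM, and the 3 most similar to each member. Alternatives were other scalings, no filter, DESeq2, a fit of all groups, the replicate number as a block, a pseudocount of 1, summed counts and leaving out each library. The Ddx25 transcript was not analysed here.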

Additional observations from a re-analysis of the deposited data

Results flagged for a closer look

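KO replicate 3 was far below the other KO samples in miR-191-3p, with 5 counts in a library where the other 4 KO libraries had 10 to 18. Its gap to the nearest sample was 0.859 of the range of log2(CPM + 1) over the group. The log2 ratio of miR-191-5p to miR-191-3p in the same library was likewise far above the others, with a gap of 0.782 of the range, and it rests on the same 5 counts. Of 32 combinations of group and measure screened, 2 stood apart in this way, where chance gives about 1 in 20, or 1.6. Without this library the KO difference of miR-191-3p was 0.03 in place of -0.15, and that of the ratio was -0.002 in place of 0.24.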

How the results depend on the processing

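With other scalings, filters and fits, most results kept their direction and their side of the threshold (146 of 162 values). For miR-191-5p, the KO difference was 0.14 by library size alone (edgeR adjusted p = 0.0826), where the median of all miRNAs was 0.13, and -0.021 with no filter. Its KI difference was -0.20 with all groups in 1 fit (edgeR adjusted p = 0.0940). Between the WT batches it was -0.36 by library size, -0.15 by library size without miR-16-5p and miR-34c-5p, 0.060 with no filter, 0.0029 with DESeq2 and 0.024 with all groups. miR-425-5p was at 0.0036 in KI by library size, and between the WT batches at -0.29 and -0.089 by these library sizes, where miR-425-3p was at -0.24 and -0.038. The call of miR-191-3p between the WT batches was lost with no filter (-0.58, edgeR adjusted p = 0.131). Causes were not tested.

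Same-numbered samples did not deviate together throughout. For KO, r ranged from -0.11 to 0.18, and the own number was the best match for 1 of 5 samples. In KI it was the best match for 3 of 6, replicates 2, 3 and 6, at r of 0.52, 0.42 and 0.24. The r of KI replicates 1, 4 and 5 was 0.05, -0.11 and 0.02. The labels do not say that a number marks a shared animal or day, so whether the samples were paired is not known. With the replicate block, 124 miRNAs were called for KO, 165 for KI and 25 for the difference of the effects, and miR-191-5p in KI was called at -0.19 (edgeR adjusted p = 0.0212), lower in KI than in the same-numbered WT sample in 6 of 6.

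Leaving out 1 library at a time, miR-191-5p ranged from -0.016 to 0.066 in KO (below 0 without WT replicate 1 of batch 1 or KO replicate 5), from -0.25 to -0.10 in KI and from -0.10 to 0.025 between the WT batches (above 0 without WT replicate 2 or 5 of batch 1). miR-191-3p ranged from -0.26 to 0.031 in KO (above 0 without KO replicate 3), from -0.020 to 0.22 in KI (below 0 without WT replicate 2 or 5) and from -0.82 to -0.55 between the WT batches. miR-425-5p ranged from -0.18 to -0.089 in KO (called at an edgeR adjusted p of 0.0921 without WT replicate 4), and from -0.043 to 0.11 between the WT batches (below 0 without WT replicate 4 of batch 1 or 2 of batch 2). It ranged from -0.12 to -0.039 in KI, not called. miR-425-3p ranged from 0.13 to 0.31 in KO, from 0.16 to 0.36 in KI and from 0.0063 to 0.21 between the WT batches. For the difference of the effects the count ranged from 0 to 26 (1 without WT replicate 1 of batch 2, 26 without KI replicate 2), miR-191-5p from 0.047 to 0.27, miR-191-3p from -0.41 to -0.029, miR-425-5p from -0.18 to 0.014 (above 0 without WT replicate 5 of batch 1) and miR-425-3p from -0.22 to 0.049 (above 0 without WT replicate 2 of batch 1 or KI replicate 2).

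Among the ratios, miR-191-5p to miR-191-3p ranged from -0.0020 to 0.36 in KO and from 0.56 to 0.86 between the WT batches, miR-425-5p to miR-425-3p from -0.40 to -0.22 in KO, from -0.39 to -0.26 in KI and from -0.10 to 0.082 between the WT batches (above 0 without WT replicate 5 of batch 1), miR-191-5p to miR-425-5p from 0.13 to 0.22 in KO, and miR-191-3p to miR-425-3p from -0.29 to 0.025 in KI (above 0 without WT replicate 1 or KI replicate 6) and from -0.95 to -0.67 between the WT batches. The 3p products, at 5 to 85 counts a library, are limited by depth.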
